A study of Canis lupus familiaris with 28 samples.

Results

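In TR-T10 dog cells, 114 of 29884 counted transcripts formed a group that was high in crowded wild-type cells. These transcripts were low in cells with shRNAs against both p190 proteins. They were chosen from measured values by 4 limits on log2(group mean CPM + 1), where CPM is the count of a transcript scaled to the same total of transcript counts in every library. The difference between confluent and sub-confluent wild-type cells had to be at least 1. The difference between confluent double knockdown and wild-type cells had to be -1 or lower in each of 2 experiments, and the p190A and p190B single knockdowns at confluence had to lie within 0.7 of each other. No gene names stand beside the transcript identifiers, and 0 of the identifiers were found in the reference table of 43286 dog genes, so the members are described as transcripts. Several of them may belong to 1 gene. For the same reason the targeted genes and the markers of the cell type could not be read in any sample.

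p190A and p190B (products of ARHGAP35 and ARHGAP5) are GTPase-activating proteins that switch off the small GTPase RhoA, which otherwise drives actomyosin contraction. Cells that touch their neighbours stop dividing, a behaviour called contact inhibition. The Hippo pathway takes part in it: LATS kinases phosphorylate the coactivator YAP, which then leaves the nucleus and no longer works with TEAD transcription factors. The study asked, by its title, how p190 acts on contact inhibition through YAP-driven transcription.

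TR-T10 carries a tetracycline repressor, so that doxycycline turns on the introduced constructs. In experiment 1, cells with shRNAs against both p190 proteins (double knockdown), against p190A alone, against p190B alone, and wild-type cells were taken confluent and sub-confluent, making 8 groups of 2 libraries. Experiment 2 used confluent cells alone. It had 2 distinct libraries labelled YAP5SA, and 3 each of the double knockdown with YAP5SA+S94A, the double knockdown and wild type. YAP5SA is a form of YAP that LATS cannot inactivate, and S94A is a change with which YAP no longer binds TEAD. One label of the YAP5SA samples names YAP5SA expression only and another adds both shRNAs, so these are called the YAP5SA-labelled libraries. Each line was selected separately, with hygromycin for the p190A shRNA, puromycin for the p190B shRNA and G418 for the YAP constructs. Knockdown, drug selection and other differences between lines therefore cannot be told apart. In double knockdown cells given a YAP construct, knockdown and YAP expression were switched on together. Doxycycline at 4 µg/ml was given for 3 days before cells were replated for 3 to 5 days, per the labels' protocols. The same protocol text stands on every sample and does not mention wild-type cells by name. The labels do not tell whether replicates were separate cultures. The p-values therefore reflect only the spread among these samples, and that spread may be technical. Replicates differed less in experiment 2. There edgeR put their variation beyond counting noise, relative to the level, at 0.030, against 0.128 in experiment 1. Small p-values in experiment 2 rest on this narrow spread and are not stronger biological evidence than those of experiment 1. The source of the difference in spread was not tested.

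The 27 distinct libraries held 10706716 to 17215544 transcript counts. YAP5SA-labelled replicates 1 and 2 had identical values in every row and were counted as 1 sample. One pair of replicates stood apart on the members: in sub-confluent p190A knockdown cells, replicate 1 was above replicate 2 for 106 of 114 members and below it for 4, by a median of 0.63 on the log2(CPM + 1) scale. In the other replicate pairs of both experiments the median absolute difference over members was 0.0801 to 0.309. Some of these pairs were 1-sided too. In sub-confluent double knockdown cells replicate 1 was above replicate 2 for 88 members and below it for 19. At confluence in experiment 1 the counts were 21 above and 86 below in the double knockdown, and 27 and 86 in the p190B knockdown. Counts of called members that use these p190A libraries are given with and without each of them.

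The limits narrowed the transcripts in steps. At confluence 672 transcripts were at least 1 log2 unit higher in wild-type cells, 394 of these met the knockdown limit in experiment 1 as well, and 180 met it in experiment 2 too. The limit on the single knockdowns then left 114. Of the 66 it removed, 51 were lower with the p190A than with the p190B shRNA and 15 the other way. Just inside and outside the limits, the nearest transcripts had contact differences of 1.003 and 0.996, and knockdown differences of -1.02 and -0.94 in experiment 1 and -1.01 and -0.99 in experiment 2. For the single knockdowns the sizes were 0.69 and 0.71. Many members were close to a limit, with 26 within 0.1 of the contact limit and 19 within 0.1 of that in experiment 2.

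These chosen differences are descriptions. Members were higher in confluent than in sub-confluent wild-type cells by a median of 1.33 log2 units, with a range of 1.00 to 3.20. In confluent double knockdown cells their median difference from wild type was -1.83 log2 units in experiment 1 and -1.43 in experiment 2. Their mean levels over all libraries ran from 0.620 to 736 CPM with a median of 8.61. Of the 114, 7 averaged at least 100 CPM and 6 averaged under 1. The 5 most abundant members held 53.2% of the summed CPM of the group.

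Summed over the group, the double knockdown held 1773 and 1965 CPM at confluence in experiment 1, against 6549.6 and 6858 CPM in wild-type cells. In experiment 2 the sums were 1827, 1926 and 1975 CPM in double knockdown and 6451, 6489.5 and 6394 CPM in wild-type cells. The groups did not overlap in either experiment, as the limits required of each member. At confluence in experiment 1, 45 and 37 members were under 1 CPM in the double knockdown libraries, against 0 and 1 in the wild-type ones. Fewer cells that express a transcript and less of it per cell cannot be told apart in such bulk libraries.

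**Figure D1:**
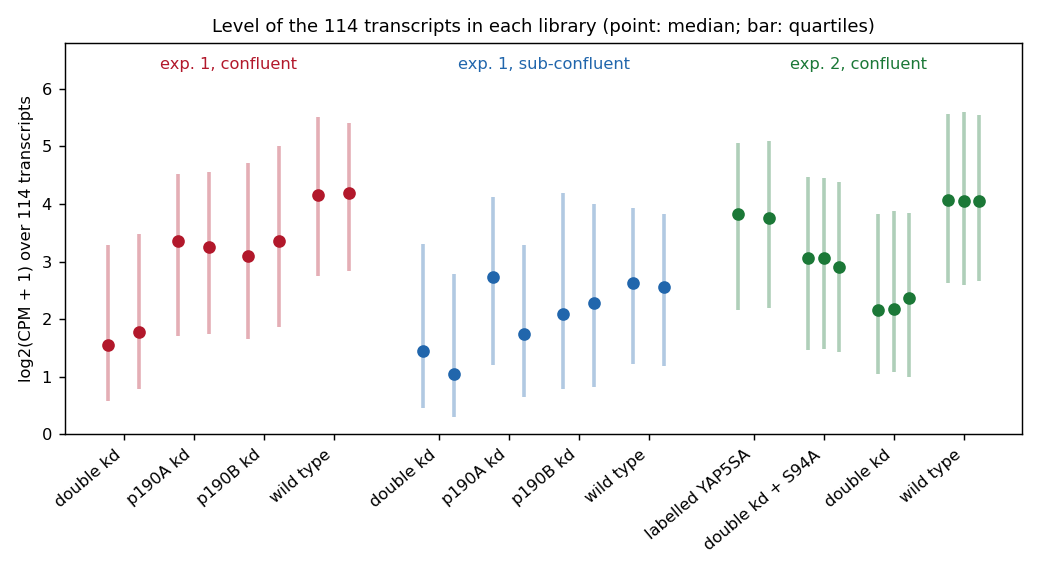
Each point is 1 library and gives the median log2(CPM + 1) of the 114 transcripts, with a bar for the quartiles over transcripts; kd means knockdown. Double knockdown libraries lie between 1.05 and 2.36, confluent wild-type libraries between 4.05 and 4.20, and the sub-confluent p190A pair is the widest of all pairs.

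Both single knockdowns lay between the double knockdown and wild type at confluence. The median level over members, as log2(CPM + 1), was 3.25 to 3.35 in the p190A libraries and 3.097 to 3.35 in the p190B libraries, against 4.15 to 4.20 in wild type. The 2 single knockdowns overlapped each other, which the rule favours, and neither overlapped wild type. The p190A knockdown was below wild type for 113 of 114 members, with a median difference of -0.77 log2 units. The p190B knockdown was below it for 109, with a median difference of -0.64. Over all 12845 transcripts tested in experiment 1, 54.2% and 56.6% were below wild type in these comparisons. Wild-type levels at confluence helped to choose the members, so no test is given. As a share of each member's own difference between double knockdown and wild type, the p190A knockdown covered a median of 42.9% and the p190B knockdown 34.5% on the log2 scale.

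The level of the members in sub-confluent cells followed the same order only in part. Median levels were 1.05 to 1.45 in double knockdown, 1.74 to 2.73 in p190A, 2.09 to 2.28 in p190B and 2.55 to 2.63 in wild-type libraries. The double knockdown was lowest and did not overlap the rest. The p190B libraries lay below those of wild type. The p190A libraries spanned both, so the place of p190A in the order could not be read from their spread. The sub-confluent double knockdown was below sub-confluent wild type for 103 members and above it for 11. The median difference was -0.75 log2 units over members and 0.04 over all 12845 transcripts, of which 46.5% were below wild type. Sub-confluent wild-type libraries had been used to choose members, as the low side of the contact limit.

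Confluent double knockdown cells were also below sub-confluent wild-type cells for 93 of 114 members. The median of this difference was -0.40 log2 units, against 0.06 over all transcripts, of which 43.8% were below 0. The sub-confluent double knockdown was the lowest of the 8 groups of experiment 1 for 80 members, and the confluent double knockdown for 16. Within the double knockdown line, members were higher at confluence by a median of 0.33 log2 units, with 93 above and 16 below 0. Over all transcripts the median was 0.01, with 52.0% above 0, and over the other contact-raised transcripts it was 0.38. The members' median was 1.33 in wild-type cells, where each had to reach 1, and the confluent double knockdown had been chosen for low values.

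**Figure D2:**
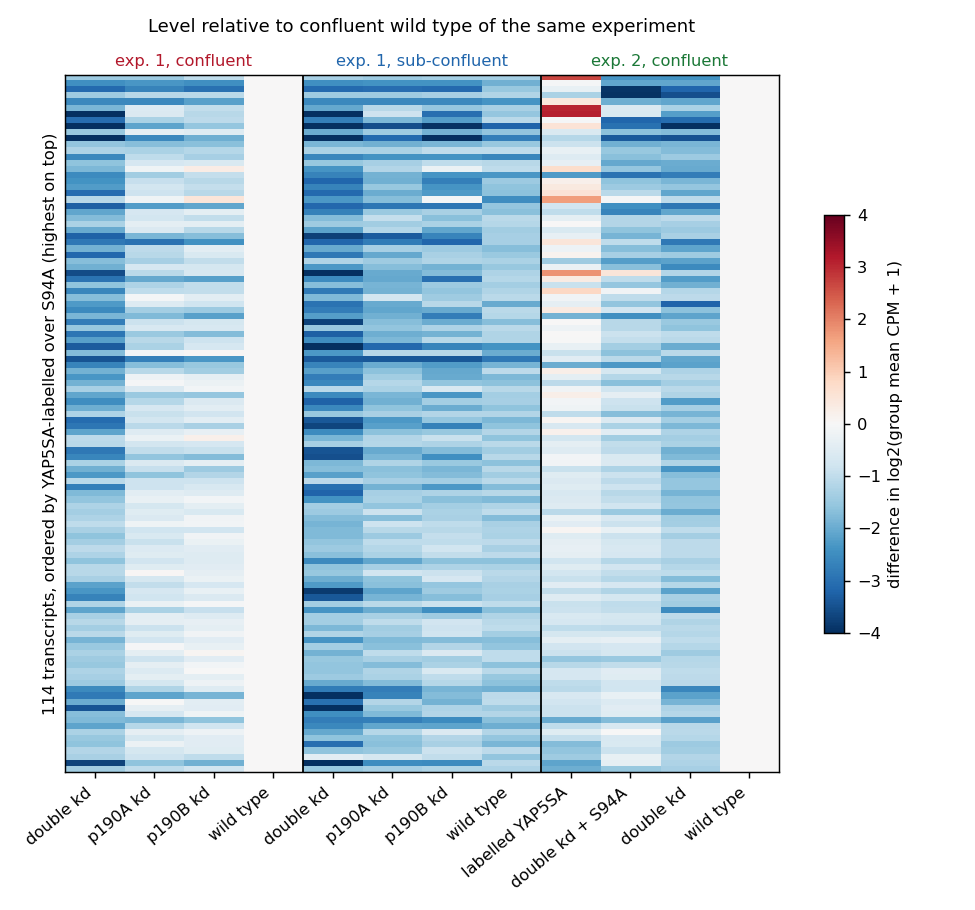
Each row is 1 of the 114 transcripts and each column a group; colour gives log2(group mean CPM + 1) minus that of confluent wild type in the same experiment (kd, knockdown). Blue marks lower levels: both confluent double knockdown columns are blue throughout because of the limits, while the YAP5SA-labelled column holds 24 rows above wild type.

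The next comparison asked whether the members still responded to contact in cells with 1 of the p190 proteins knocked down. It is not fully independent of the choice of members. The sub-confluent single knockdown libraries do not enter the rule, but the confluent ones enter it through the difference between the p190A and p190B lines. The test is of the mean of both lines. In that mean, 90 of 114 members rose at confluence and 0 fell (edgeR quasi-likelihood test, Benjamini-Hochberg adjusted p under 0.05 over 12845 transcripts). In the background, 14.3% of all tested transcripts rose and 15.4% fell. All 114 members had passed the filter on low counts over the 16 libraries, and 106 passed it when the 4 compared groups alone were used. At an unadjusted p under 0.05 there were 98 higher and 0 lower members, with no share of all transcripts taken at that threshold. DESeq2 and limma-voom also called 0 lower, where 15.5% and 14.6% of all transcripts fell.

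The size of this rise was a median log2 fold change of 1.08 over members, with quartiles of 0.74 and 1.57, against 0.00 over all transcripts tested. On the scale of the rule the median was 0.79 in p190A and 0.80 in p190B cells. CPM values of the 4 confluent libraries lay above those of all 4 sub-confluent ones for 70 members, 61.4%, where 10.2% of all transcripts did so. They lay below for 0 members and for 7.17% of all transcripts. The 558 other transcripts that passed the contact limit in wild-type cells give a close comparison. Of 557 tested, 430 (77.2%) rose at confluence in the single knockdowns, beside 78.9% of members, and the difference between these shares was not tested. The count of 90 became 99 without sub-confluent p190A replicate 1, where 18.8% of all transcripts rose. It became 63 without replicate 2 and 59 without sub-confluent p190B replicate 2, where 6.96% and 6.98% did.

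A further comparison asked whether knockdown of both proteins lowered the members beyond knockdown of 1 when cells were sparse. None of these 6 libraries had been used by the rule. Members had been chosen for low values in the confluent double knockdown, so a difference between lines present at both densities would favour lower calls. In sub-confluent cells, 54 of 114 members were lower in double than in single knockdown cells and 0 were higher (edgeR quasi-likelihood test, adjusted p under 0.05), where 14.9% of all tested transcripts fell and 13.7% rose. At unadjusted p under 0.05 the counts were 69 lower and 0 higher, with no share of all transcripts taken at that threshold. DESeq2 called 60 lower and 0 higher and limma-voom 50 and 0, where 14.9% of all transcripts fell with each. With no filter for low counts, 71 members were lower and 1 was higher. Of the 19256 transcripts then tested, 2059 were lower and 1944 higher. The median log2 fold change was -1.10 over members, with quartiles of -1.87 and -0.47, and 0.00 over all transcripts. Many members were low in these 6 libraries: 91 of 114 passed the filter on low counts when only they were used, so the others passed it through the rest of the groups. Over the 6 libraries 8 members had fewer than 10 counts in all, 1 of them had 0, and 0 of the 8 were called.

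Both double knockdown libraries were below all 4 single knockdown libraries in CPM for 46 members, 40.4%, against 13.9% of all transcripts. They were above all 4 for 0 members and for 19.3% of all transcripts. Among the other contact-raised transcripts 140 of 557 (25.1%) fell. The difference between 47.4% of members and 25.1% of those was not tested. The count of 54 depended on single libraries. It was 43 without sub-confluent p190A replicate 1 and 70 without replicate 2, where 12.3% and 18.0% of all transcripts fell. It was 25 without double knockdown replicate 2, where 5.90% did. When the other groups were kept out of the fit, 28 of the 91 members then tested were called, against 7.04% of all transcripts.

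The rule asked for like levels in the single knockdowns at confluence only, so the same measure was tested in sub-confluent cells. There 7 members were higher and 9 lower in p190A than in p190B cells, where 11.0% and 10.3% of all transcripts were called. The median log2 fold change over members was -0.14. CPM values did not overlap for 13 higher and 37 lower members, against 28.9% and 27.1% of all transcripts. The calls turned with the p190A replicates: 1 higher and 27 lower without replicate 1 of the sub-confluent p190A libraries, where 13.1% and 11.7% of all transcripts were called. Without replicate 2 there were 16 higher and 0 lower, where 7.01% and 6.27% of all transcripts were called. Without sub-confluent p190B replicates 1 and 2 the median log2 fold change over members was -0.14 and -0.05. When the other groups were kept out of the fit, 0 of 89 members tested were higher and 1 lower, against 3.11% and 4.14% of all transcripts. No direction can be given for the group from these libraries.

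**Figure D3:**
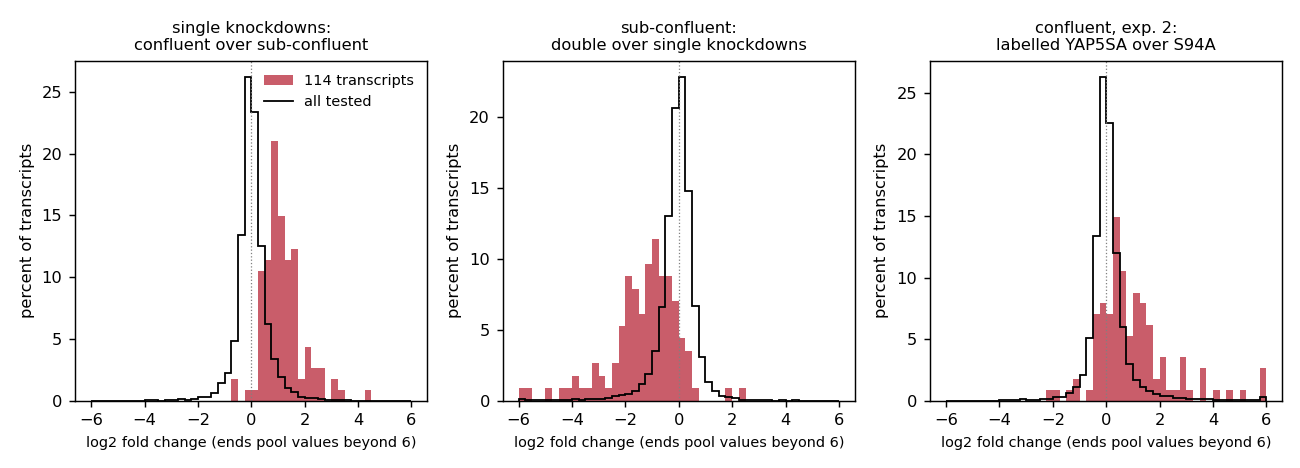
Share of transcripts (percent, vertical axis) by log2 fold change in 3 comparisons other than those of the rule, for the 114 transcripts (filled) and all transcripts tested (line). The members' medians are 1.08, -1.10 and 0.69 from left to right, and the medians of all transcripts are 0.00 in each.

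In experiment 2 the members took 4 separate levels. Median log2(CPM + 1) over members was 3.77 to 3.82 in YAP5SA-labelled libraries, 2.91 to 3.06 with YAP5SA+S94A, 2.17 to 2.36 in the double knockdown and 4.05 to 4.06 in wild type. No 2 of these groups overlapped. Summed CPM was 5624 and 5506 in YAP5SA-labelled libraries and 3201, 3184 and 3201 with YAP5SA+S94A. The double knockdown was lowest for 89 members, and wild type highest for 90, both partly set by the limits. The YAP5SA-labelled group was highest for 24 and lowest for 7.

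The comparison of YAP5SA-labelled with YAP5SA+S94A libraries uses no library of the rule. It asks how the members differ between cells with a YAP that can bind TEAD and cells with one that cannot, although the labels leave unclear whether the YAP5SA-labelled cells also carried the shRNAs. If they did not, the form of YAP and the knockdown cannot be told apart. The test would then also set cells without knockdown against double knockdown cells. Members were chosen by that direction, so more higher than lower calls would be favoured by the rule. Of 114 members, 79 were higher and 13 lower in the YAP5SA-labelled libraries (edgeR quasi-likelihood test, adjusted p under 0.05 over 13061 transcripts), where 27.8% of all transcripts were higher and 26.5% lower. The median log2 fold change was 0.69, with quartiles of 0.18 and 1.501, against 0.00 over all transcripts.

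CPM values of both groups did not overlap for 85 higher and 16 lower members, 74.6% and 14.0%, against 35.5% and 33.2% of all transcripts. Of 553 other contact-raised transcripts tested, 211 (38.2%) were higher and 94 (17.0%) lower. Whether the members' 69.3% differs from that was not tested. Leaving out each YAP5SA+S94A library in turn gave 77 to 80 higher and 12 to 14 lower members. In the same fits 3331 to 3409 of all transcripts were higher and 3245 to 3266 lower, out of 13018 to 13081 tested. Leaving out either YAP5SA-labelled library leaves 1 in that group. The members' median log2 fold change was then 0.666 without replicate 1 and 0.670 without replicate 3.

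Set beside wild type and the double knockdown, which helped to choose members, these libraries are described only. YAP5SA-labelled levels were below wild type for 90 members, with a median difference of -0.49 log2 units, and at least 1 log2 unit above it for 5. Levels with YAP5SA+S94A were above the double knockdown for 93 members and below it for 20, by a median of 0.47 log2 units. They were below wild type for 113, with a median difference of -1.02. Over all 13061 transcripts the medians of these 3 differences were -0.07, -0.02 and -0.07. Of all transcripts, 57.7% were below wild type in YAP5SA-labelled libraries and 59.7% with YAP5SA+S94A. With YAP5SA+S94A, 46.2% were above the double knockdown. Members had been chosen for low values in the same double knockdown and high values in the same wild-type libraries.

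The members separated by how they stood in the YAP5SA-labelled libraries. The 79 higher ones had a median difference from wild type of -0.31 log2 units there, and of -1.14 with YAP5SA+S94A. The 13 lower ones had medians of -1.01 in YAP5SA-labelled libraries and -0.48 with YAP5SA+S94A. They were also more abundant, with a median mean level of 32.8 CPM against 8.45 CPM for the 79. This is not particular to members. Of all transcripts, 35.3% were lower in YAP5SA-labelled libraries at the upper range of levels given below, and 9.80% at the lower range. Of the 13, 10 rose at confluence in the single knockdowns and 9 fell in sub-confluent double knockdown cells. Of the 79, 61 and 36 did. Of all transcripts, 14.3% rose and 14.9% fell in these comparisons. Since the classes were formed by the calls, no test of these differences is given.

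Named transcripts were the 2 members with the largest called difference in each direction between YAP5SA-labelled and YAP5SA+S94A libraries, among those with a mean of at least 8 CPM and no overlap. There were 42 such members in the higher and 10 in the lower direction. Call, size and lack of overlap in that comparison were set by this choice. The values given for it below are therefore descriptions and not further evidence.

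ENSCAFT00000032480 had the largest rise among members with a mean of at least 8 CPM and was among the 7 most abundant. It was at 1282 and 1233 CPM in YAP5SA-labelled libraries, against 96.1, 89.7 and 95.6 CPM with YAP5SA+S94A. In the same experiment it was at 25.5, 32.8 and 34.4 CPM in double knockdown and 153, 136 and 144 CPM in wild-type cells. The YAP5SA-labelled libraries thus stood above every other library of both experiments. The log2 fold change over YAP5SA+S94A was 3.74 (SE 0.08, edgeR adjusted p = 2.9e-11). In experiment 1 at confluence it had 28.4 and 22.4 CPM in double knockdown, 323 and 253 CPM in p190A, 183 and 216 CPM in p190B and 421 and 439.6 CPM in wild-type libraries. The sub-confluent values were 16.01 and 10.4, 387 and 92.8, 43.0 and 62.0, and 153 and 141 CPM in the same order of lines. The p190A pair differed most, and both double knockdown libraries were below all others at that density. Sub-confluent double knockdown was lower than single knockdown by a log2 fold change of -3.14 (SE 0.45, edgeR adjusted p = 3.0e-04).

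ENSCAFT00000013297 followed wild type closely in the YAP5SA-labelled libraries. Its values there were 24.7 and 25.3 CPM, against 2.11, 1.91 and 1.79 CPM with YAP5SA+S94A, 1.61, 2.33 and 2.62 CPM in the double knockdown and 26.0, 24.8 and 26.2 CPM in wild type. YAP5SA+S94A libraries overlapped the double knockdown, and YAP5SA-labelled libraries overlapped wild type. The log2 fold change between YAP5SA-labelled and YAP5SA+S94A libraries was 3.67 (SE 0.13, edgeR adjusted p = 3.0e-32). At confluence in experiment 1 it was at 0.904 and 1.43 CPM in double knockdown and 14.2 and 19.8 CPM in wild type. The double knockdown values rest on 11 and 22 counts. In sub-confluent cells it averaged 1.71 ± 1.19 CPM in double, 4.20 ± 2.50 CPM in p190A and 2.87 ± 0.670 CPM in p190B knockdown (SD, n = 2 each). Double against single knockdown gave a log2 fold change of -1.10 (SE 0.42, edgeR adjusted p = 0.067). That difference passed the threshold with DESeq2 (adjusted p = 0.034), with no filter for low counts (adjusted p = 7.2e-04) and without sub-confluent p190A replicate 2 (adjusted p = 0.011) or double knockdown replicate 1 (adjusted p = 0.016). It also passed with the replicate block within density (adjusted p = 0.036). Without double knockdown replicate 2 the log2 fold change was -0.50 (adjusted p = 0.56), and without sub-confluent p190A replicate 1 it was -0.73 (adjusted p = 0.20). The adjusted p was 0.19 with the other groups kept out of the fit and 0.16 without sub-confluent p190B replicate 2.

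ENSCAFT00000043507 ran the other way. It had 32.4 and 36.7 CPM in YAP5SA-labelled libraries, against 116, 119 and 119.9 CPM with YAP5SA+S94A. Double knockdown cells had 60.2, 66.1 and 68.5 CPM and wild-type cells 159, 152 and 149 CPM. The YAP5SA-labelled libraries were thus below the double knockdown too, and YAP5SA+S94A lay between double knockdown and wild type. The log2 fold change was -1.78 (SE 0.06, edgeR adjusted p = 1.9e-34). At confluence in experiment 1 it was at 13.9 and 25.02 CPM in double knockdown, 81.0 and 91.7 CPM in p190A, 55.7 and 85.0 CPM in p190B and 231 and 305 CPM in wild-type libraries. In sub-confluent cells it had 15.6 and 4.82 CPM in double knockdown, 53.3 and 41.5 CPM in p190A, 48.8 and 42.7 CPM in p190B and 142 and 113 CPM in wild-type libraries. At each density the single knockdowns lay between the double knockdown and wild type with no overlap. The sub-confluent double knockdown was lower than the single ones by a log2 fold change of -2.27 (SE 0.36, edgeR adjusted p = 5.2e-04).

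ENSCAFT00000004346 was the other member of this direction. It had 4.67 and 4.72 CPM in YAP5SA-labelled libraries, 10.6, 12.2 and 11.4 CPM with YAP5SA+S94A, 5.54, 6.23 and 5.62 CPM in double knockdown and 15.9, 13.0 and 13.7 CPM in wild-type libraries. No 2 of these groups overlapped, and the log2 fold change was -1.28 (SE 0.14, edgeR adjusted p = 6.6e-12). In sub-confluent cells its order differed from that of the group. It had 15.5 and 6.68 CPM in double knockdown, 11.9 and 5.92 CPM in p190A, 5.74 and 8.40 CPM in p190B and 4.75 and 4.16 CPM in wild-type libraries, so wild type was lowest. Sub-confluent double and single knockdown libraries overlapped, with a log2 fold change of 0.42 (SE 0.32, edgeR adjusted p = 0.35). Contact in the single knockdowns gave a log2 fold change of -0.10 (SE 0.27, edgeR adjusted p = 0.80).

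**Figure D4:**
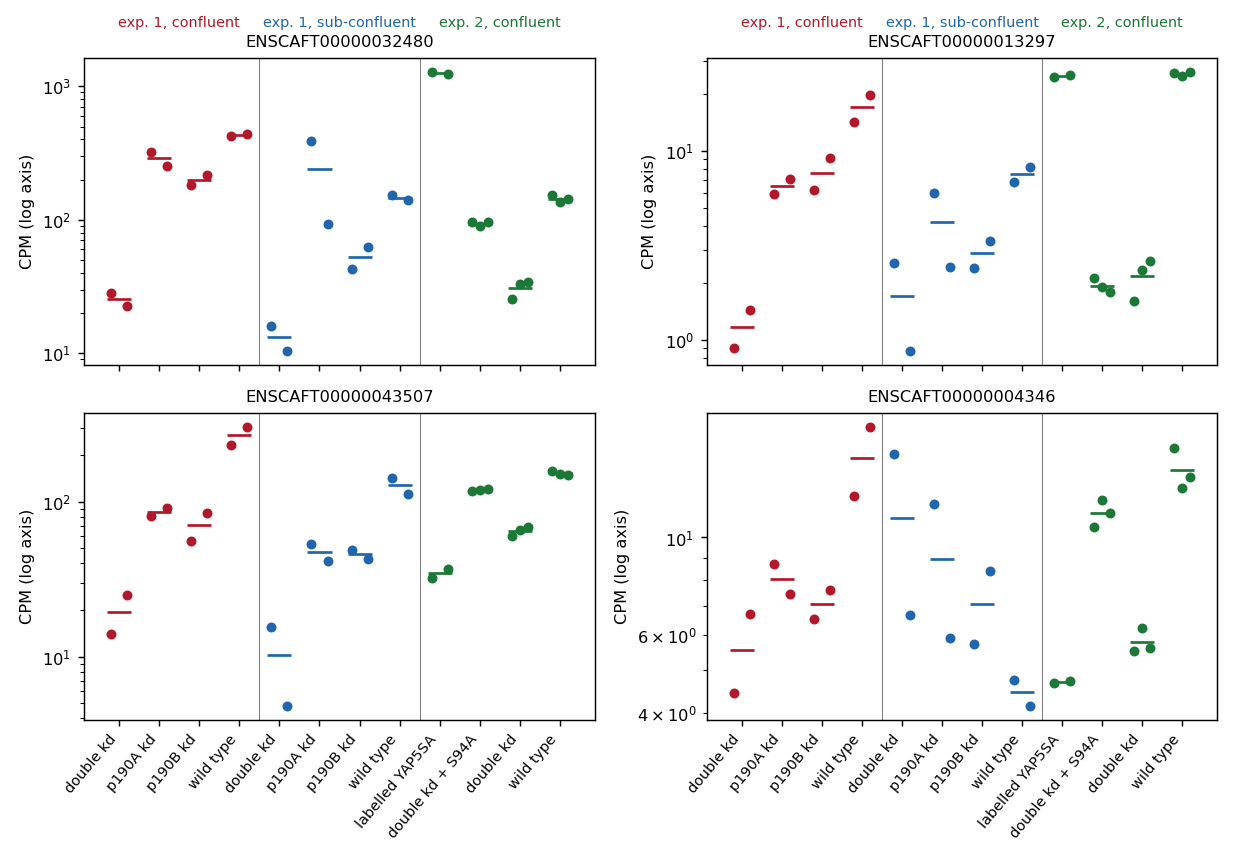
CPM of the 4 named transcripts in every library (points, log axis, with each panel on its own range) and group means (lines); kd means knockdown. The upper 2 transcripts are highest in or level with wild type in YAP5SA-labelled libraries (1258 and 25.02 CPM on average), and the lower 2 are lowest of experiment 2 there (34.5 and 4.69 CPM).

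The other 3 named transcripts rose at confluence in the single knockdowns, with log2 fold changes of 1.06 (SE 0.30, edgeR adjusted p = 0.019) for ENSCAFT00000032480, 1.00 (SE 0.30, edgeR adjusted p = 0.023) for ENSCAFT00000013297 and 0.71 (SE 0.24, edgeR adjusted p = 0.043) for ENSCAFT00000043507. Each of these calls was lost in several other fits. For ENSCAFT00000032480 this was so without confluent p190A replicate 1 (adjusted p = 0.066), confluent p190B replicate 2 (0.054) or sub-confluent p190B replicate 1 or 2 (0.0999 and 0.057), and with the replicate block within density (0.056). Its log2 fold change was 1.74 without sub-confluent p190A replicate 1. For ENSCAFT00000013297 it was so without confluent p190A replicate 2 (0.071), confluent p190B replicate 2 (0.088), sub-confluent p190A replicate 2 (0.078) or sub-confluent p190B replicate 1 or 2 (0.088 and 0.052). For ENSCAFT00000043507 the call was lost in every fit that left out 1 library except that without confluent p190B replicate 1 (adjusted p between 0.081 and 0.22), and with DESeq2 (adjusted p = 0.096).

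Across the 114 members, the log2 fold changes of sub-confluent double over single knockdown and of YAP5SA-labelled over YAP5SA+S94A libraries, which share no library, had Pearson's r = 0.045 and Spearman's rho = -0.10. Over all 12552 transcripts they were -0.20 and -0.17. Members are not independent replicates, so no p is given.

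**Figure D5:**
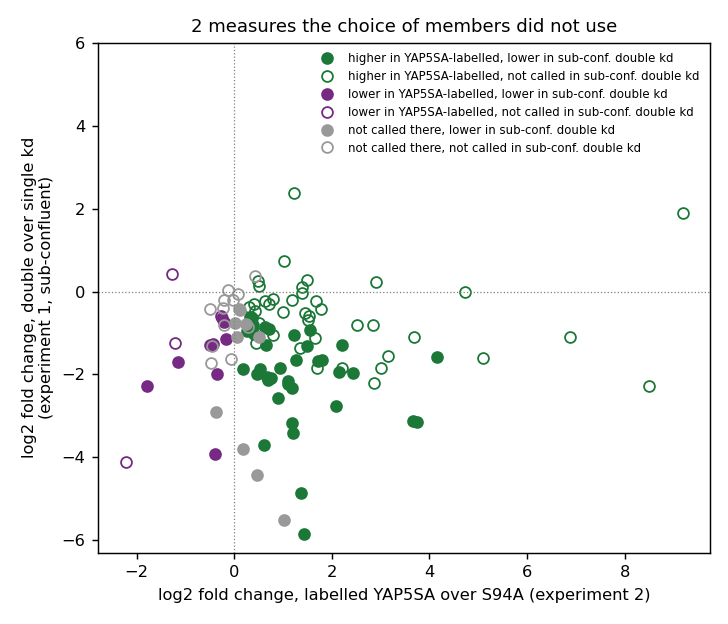
Each point is 1 of the 114 transcripts, with the log2 fold change of YAP5SA-labelled over YAP5SA+S94A libraries across and that of sub-confluent double over single knockdown (kd) upwards. Filled points were called lower in sub-confluent double knockdown (54 transcripts); green were called higher (79) and purple lower (13) in YAP5SA-labelled libraries.

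The calls were also counted by the level of the members. Among the 57 more abundant members, with means of 8.77 to 736 CPM, 45 rose with contact in the single knockdowns, 34 fell in sub-confluent double knockdown, and 39 were higher and 11 lower in YAP5SA-labelled libraries. Among the 57 less abundant ones, with means of 0.620 to 8.45 CPM, the same counts were 45, 20, 40 and 2. Of all transcripts tested at the upper range of levels, 14.8% rose with contact, 18.0% fell in sub-confluent double knockdown, and 28.9% were higher and 35.3% lower in YAP5SA-labelled libraries. At the lower range these shares were 14.0%, 8.94%, 24.6% and 9.80%. The less abundant members had larger median log2 fold changes, 1.43 against 0.82 for contact, -1.28 against -0.85 for the sub-confluent double knockdown and 1.18 against 0.41 for YAP5SA-labelled libraries. Log2 fold changes of transcripts with few counts are imprecise.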

How the data were processed

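The authors deposited 1 table of raw whole-number read counts per sample for 29884 Ensembl dog transcripts, with 5 summary rows that name none. The submitters' processing notes list, without roles, HTSeq 0.6.0, STAR 2.3.1n, CanFam3.1 as build and DESeq2 1.4.5. No source used here gives the strand setting. Of reads aligned to 1 place, 20.3% to 23.1% were in the summary row for ambiguous reads and 21.2% to 23.8% in that for reads outside transcripts, so overlapping transcripts are measured from part of their reads. Summary rows were left out.

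From these counts, edgeR 4.0.16 (R 4.3.3; filterByExpr, TMM, robust quasi-likelihood F-tests, Benjamini-Hochberg) was fitted over 16 libraries of experiment 1 with 8 group means and 11 of experiment 2 with 4. SEs were derived from F. The fits were tested on simulated data. Alternatives used DESeq2 1.42.0 and limma 3.58.1, among others. Members and tests were chosen with earlier results of these data known. Tests were kept to contrasts the rule did not use. Those of the sub-confluent double knockdown and of the YAP5SA-labelled libraries may still run along the rule's knockdown direction. Gene lists were not run, for want of names; instead 4 transcripts are named by a rule on their YAP5SA-labelled against YAP5SA+S94A difference, the 2 largest in each direction among called members with a mean of at least 8 CPM and no overlap.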

Additional observations from a re-analysis of the deposited data

How the results depend on the processing

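The number of members, 114, was 151 with a pseudocount of 0.5, of which 109 were shared, and 92 with TMM-scaled CPM, of which 91 were shared. A pseudocount of 5 left 35, of which 29 were shared, because it shrinks differences of low transcripts. Leaving out each library of the rule in turn gave 103 to 122 members. Counts of members called moved by over 1.5 times in the following cases, and the cause was not tested. For sub-confluent double against single knockdown, 28 of 91 members tested were called when the other groups were kept out of the fit. All 28 were lower, against 7.04% of all transcripts. For sub-confluent p190A against p190B knockdown, there were 34 without the filter on low counts. These were 11 higher and 23 lower, against 8.04% and 8.31% of all transcripts. A replicate block within density gave 27, 8 higher and 19 lower, against 16.1% and 14.5% of all transcripts. With the other groups kept out of the fit, 0 were higher and 1 lower of 89 tested, against 3.11% and 4.14%. Leaving out each compared library gave 59 to 99 members for contact in the single knockdowns, 25 to 70 for the sub-confluent double knockdown, 3 to 28 for sub-confluent p190A against p190B and 86 to 92 for YAP5SA-labelled against YAP5SA+S94A. In fits without 1 library, the remaining library of a pair borrows its spread from the rest. The share of all transcripts called also moved with the library left out.

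With a replicate block, 92 members rose for contact and 57 fell in the sub-confluent double knockdown. Of all 12845 transcripts, 2084 and 2062 did so. For p190A against p190B, 7 members were higher and 15 lower, against 1542 and 1446 of all transcripts. With the block within density, 96 members rose for contact and 68 fell in the double knockdown, against 2684 and 2526 of all transcripts. Deviations of same-numbered libraries had r of 0.18 to 0.60 across transcripts for 12 pairs of groups at 1 density, and of -0.24 to 0.07 for 16 pairs across densities, and the labels tie the numbers to nothing. No paired analysis was possible for YAP5SA-labelled against YAP5SA+S94A because their titles share fewer than 2 replicate letters. For named transcripts, ENSCAFT00000004346 changed sign without a call: its contact log2 fold change ran from -0.31 to 0.18 over fits without 1 library, with 0.18 without sub-confluent p190A replicate 1 and 0.043 without sub-confluent p190B replicate 2. Its double against single knockdown value ran from -0.27, without double knockdown replicate 1, to 0.90. ENSCAFT00000032480 and ENSCAFT00000013297 changed a call with the block within density, to adjusted p = 0.056 for contact and 0.036 for double against single knockdown.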
